A study of Mus musculus with 441 samples.

Results

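The cells described here are the 73 follicular helper T cells in which Cxcr5 was detected, set against the 99 cells of the same annotated class in which it was not. Both come from the 172 cells that the authors' annotation calls T follicular helper cells, out of 441 single cells sorted as CD4 T cells from mouse pancreatic islets, of which the annotation calls 21 B cells. A cell was counted as Cxcr5-detected when Cxcr5 reached 1 TPM (transcripts per 1000000, a length-scaled share of all transcripts in the cell). The 2 tetramer sorts, named HIP and Ins, supplied them. Cxcr5-detected cells numbered 45 in HIP and 28 in Ins, and other cells 66 in HIP and 33 in Ins. A tetramer is a linked set of MHC class II molecules loaded with a peptide, and it stains T cells whose receptor binds that peptide. The labels state the sorts by these names, describe the sorted cells as specific for beta cells, and give no strain, age, sex or disease stage, nor the animal each cell came from.

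Cxcr5 is the receptor for the chemokine CXCL13, which stromal cells of B cell follicles release. A T cell that carries it can enter the follicle, where it helps B cells through CD40 ligand, interleukin 21 and contacts of the SLAM receptor family. Bcl6 is the transcription factor required for this programme, PD-1 (Pdcd1) is its usual second surface marker, and Cxcr5 and Pdcd1 together are the common definition of a follicular helper cell in flow cytometry.

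Each sort counts as 1 sample, because no label names an animal, so no difference below carries a p-value or a replicate check. SDs are spread over cells, and the intervals given for shares of cells are exact Clopper-Pearson 95% intervals that cover counting error only. TPM keeps no sequencing depth, and the number of genes detected in a cell is the only stand-in for it. It was 1973 at the median in Cxcr5-detected and 1867 in other HIP cells, with ranges of 1034 to 3343 and 625 to 3341. In the Ins sort it was 2138 in Cxcr5-detected and 1831 in other cells, with ranges of 914 to 3158 and 827 to 3284. The order did not hold in every block of 96 consecutive cell numbers (blocks that may be plates, which the labels do not name). In HIP block 2 the medians were 2002 and 2142.5 genes, and in Ins block 2 they were 2218.5 and 2267.5. The labels give the class a cluster number, and clusters of this kind are cut from the expression values themselves, so class membership and genes are not independent of each other.

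The cells were chosen by their Cxcr5 values, which are therefore given as a description. Cxcr5 (chromosome 9, 44511787 to 44561877, minus strand, mm10) ranged from 1.95 to 3611 TPM in Cxcr5-detected HIP cells, with a median of 1092 TPM. In Cxcr5-detected Ins cells it ranged from 49.1 to 6321 TPM, with a median of 921.2 TPM. Of the other cells, 98 were at 0 and 1 HIP cell lay at 0.710 TPM, just under the cut. The cells just inside it held 1.95, 3.18 and 3.92 TPM. Few cells lay near the cut: 4 of the 73 were under 10 TPM and 66 were at 100 TPM or more.

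The share of the class with Cxcr5 detected was 40.5% in the HIP sort (interval 31.3% to 50.3%) and 45.9% in the Ins sort (33.1% to 59.2%). Blocks of HIP cells gave 25.4% and 57.7%, and those of Ins cells 50.0%, 54.5% and 34.8%. Blocks of 1 sort therefore differed by more than the sorts did. The 2 sides of HIP drew unequally on its blocks. Block 1 held 15 Cxcr5-detected and 44 other cells, and block 2 held 30 and 22. A difference between the HIP sides can therefore hold a difference between blocks, and the part of block in it was not tested. Detection was lowest among cells with few genes. When each sort was cut into 3 bands of about equal size by the number of genes detected, Cxcr5 was present in 24.3%, 51.4% and 45.9% of HIP cells from the lowest band up. The same order of Ins bands gave 28.6%, 55.0% and 55.0%.

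**Figure D1:**
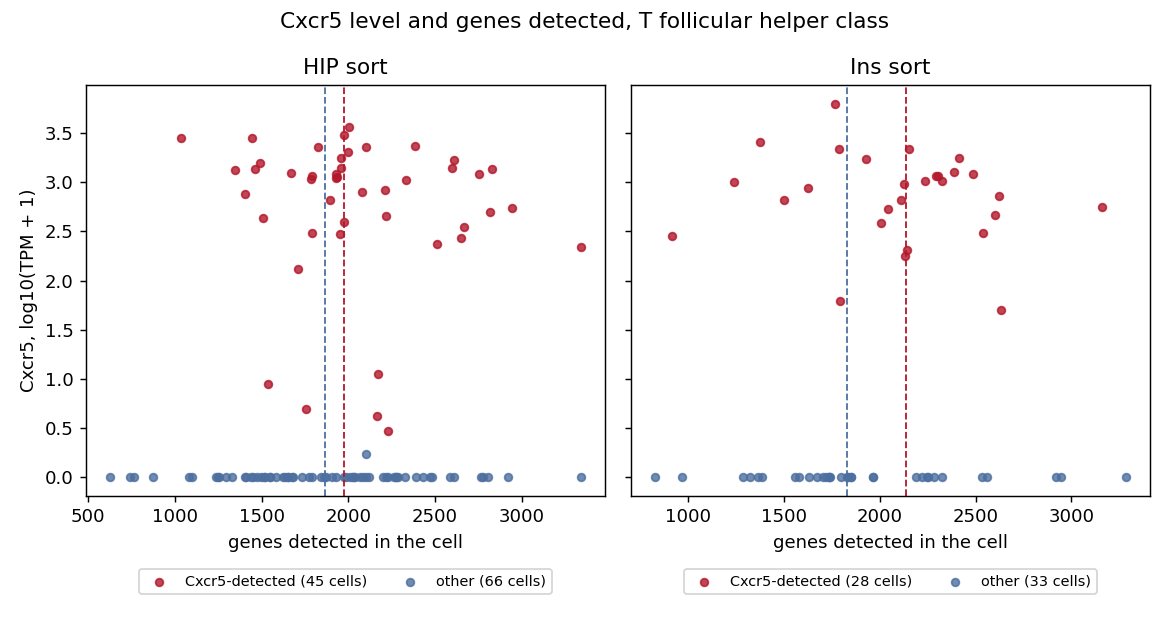
Cxcr5 level (log10 of TPM + 1, vertical axis) against the number of genes detected in the cell (horizontal axis) for the 172 cells of the class, by sort, with Cxcr5-detected cells in red and other cells in blue. Dashed lines mark the median number of genes of each side, 1973 and 1867 in HIP and 2138 and 1831 in Ins, and 98 of the 99 other cells lie at 0.

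Outside the class, Cxcr5 was rare in the cells annotated as activated CD4 T cells, with 2 of 61 in HIP (3.28%, 0.400% to 11.3%) and 2 of 25 in Ins (8.00%, 0.984% to 26.0%). Cxcr5 was present in 13 of 115 Ins regulatory T cells (11.3%, 6.16% to 18.6%) and in 13 of 35 Ins dividing cells (37.1%, 21.5% to 55.1%). Dividing cells held far more genes per cell, 3610 at the median in Ins. In the 21 Ins cells annotated as B cells it was found in 0, with an exact upper limit of 16.1% (14.3% by the limit of 3 cells).

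Genes that T cells carry constitutively also went undetected in this class at levels like that of Cxcr5. Cxcr5 was found in 42.4% of the 172 cells, at a median of 1017 TPM where it was found. Zap70, a kinase of the T cell receptor, was found in 73.3% at 1039 TPM, and Cd247, the receptor's zeta chain, in 60.5% at 973.2 TPM. Cd5, a surface regulator of receptor signalling, was found in 52.9% at 901.9 TPM, whereas Cd3e, a chain of the receptor complex, was found in 94.2% at 816.5 TPM and Cd4 in 82.0% at 778.5 TPM. Over 15 constitutive T cell genes the share found ran from 39.5% to 94.2%, with a median of 73.3%, and 9 of them had a lower median where found than Cxcr5. Cells that lack the Cxcr5 transcript cannot be told apart here from cells in which it was missed.

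Across all other genes, the balance of differences lay towards the Cxcr5-detected cells. The difference of mean log2(TPM + 1), Cxcr5-detected minus other, was taken within each sort and the 2 values were averaged. Of 2437 genes that reached 1 TPM in 25% or more of the cells on 1 side, 67.8% had an averaged difference above 0. The median of all 2437 was 0.23, with 0.24 in HIP and 0.19 in Ins. Genes counted as higher had an averaged difference of 1 or more and lay above 0 in both sorts, and they numbered 265, or 10.9% of those compared. The mirror rule, -1 or less and below 0 in both sorts, gave 38 lower genes, or 1.56%. A gene could pass the filter only through the side where it was higher. Gnai3 did so (45.2% of Cxcr5-detected and 22.2% of other cells), as did Rasa3 (8.22% and 28.3%). How many of the called genes did so was not counted, so both counts are descriptions. The 2 sorts gave opposite signs for 42.6% of all genes compared.

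The calls went with how many cells showed a gene more than with its level among those cells. The share of cells was higher in Cxcr5-detected cells of both sorts for 259 of the 265 higher genes (97.7%), against 45.3% of all genes compared. Mean TPM was higher in both sorts for 206 of them (77.7%, against 26.5% of all), and the median level among cells with the gene for 84 (31.7%, against 21.8%). Of the 38 lower genes, the share was lower in both sorts for 35 (92.1%, against 12.5%), the mean TPM for 35 (against 25.9%) and the median level among cells with the gene for 18 (47.4%, against 27.5%). The genes were picked on mean log2(TPM + 1), which depends on the share, so these counts describe the calls and support none of them. Compared within these 3 bands of genes detected and averaged, the median of all genes came down to 0.05, with 53.7% above 0. The counts were then 133 higher genes (5.46% of 2437) and 106 lower genes (4.35%). Of the 265 genes, 126 were among those 133, and 37 of the 38 were among those 106. The excess of higher over lower genes thus moved with the number of genes detected, and without cells under 1500 genes the counts were 204 and 117. With the median of all genes subtracted in each sort, 154 genes were higher and 75 lower.

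**Figure D2:**
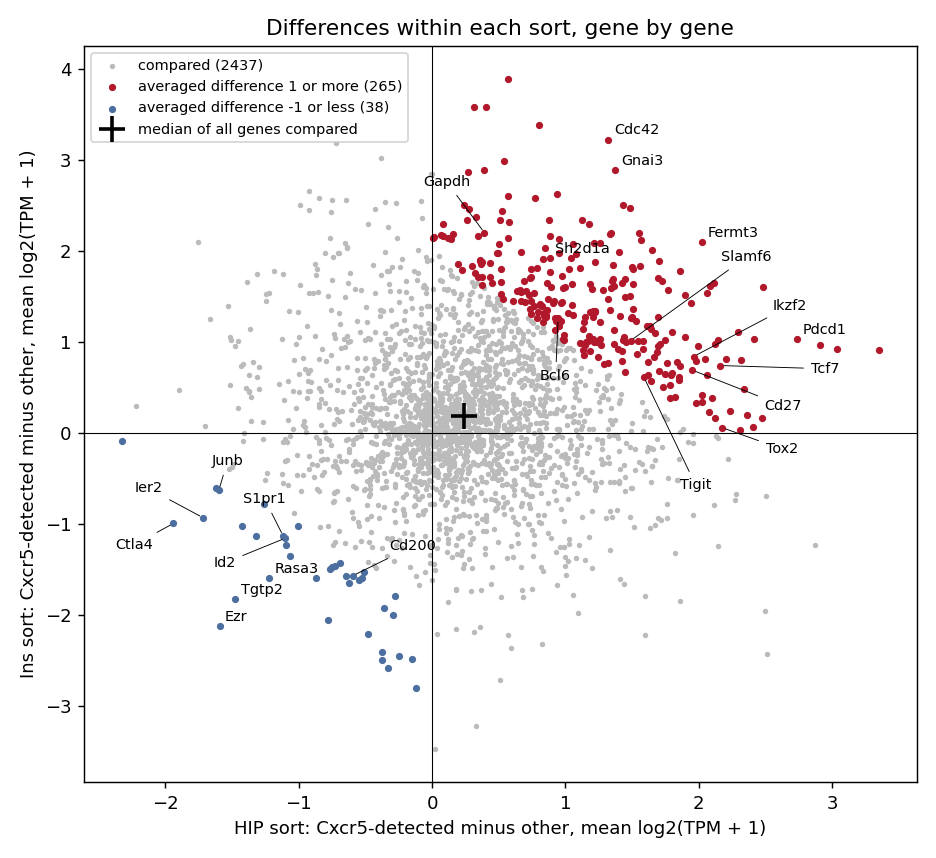
Difference of mean log2(TPM + 1), Cxcr5-detected minus other, in the HIP sort (horizontal axis) and the Ins sort (vertical axis) for each of the 2437 genes compared, with 265 higher genes in red and 38 lower genes in blue. The cross marks the median of all genes, at 0.24 in HIP and 0.19 in Ins, to the upper right of the origin.

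Among the genes of the follicular helper programme, Pdcd1 and Bcl6 stood higher in Cxcr5-detected cells and kept a difference above 1 within bands of genes detected. Of 23 listed genes 18 were compared, and 7 of the 18 were counted as higher (Pdcd1, Sh2d1a, Slamf6, Tox2, Bcl6, Tigit and Folr4), against 10.9% of all genes. Cd200 was the 1 counted as lower, against 1.56%. Over the 21 members found in 10% of the cells of either side the median difference was 0.38, against 0.14 over all 5937 genes at that filter. Within bands these medians were 0.22 and 0.02. The counts there were 2 higher genes and 1 lower of the 18, against 5.46% and 4.35% of all genes compared. Genes of this kind help to set such a class apart, so the list is no independent check of it.

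Pdcd1, which encodes the inhibitory receptor PD-1 (chromosome 1, 94038305 to 94052553), was found in 35 of 45 Cxcr5-detected HIP cells (77.8%, 62.9% to 88.8%) and in 34 of 66 other HIP cells (51.5%, 38.9% to 64.0%). In the Ins sort it was found in 17 of 28 Cxcr5-detected cells (60.7%, 40.6% to 78.5%) and in 17 of 33 other cells (51.5%, 33.5% to 69.2%). The intervals overlap in both sorts, by a small margin in HIP. Its level ran from 0 to 6953 TPM, with a median of 1018 TPM, in Cxcr5-detected HIP cells, and from 0 to 2866 TPM, with a median of 7.03 TPM, in other HIP cells. The Ins medians were 642 TPM in Cxcr5-detected and 161.3 TPM in other cells, while the means were 791.4 ± 920.1 and 896.9 ± 1960 TPM (SD over cells). The mean thus ran the other way in Ins, where 1 of the other cells reached 10586 TPM. The averaged difference was 1.89 (2.74 in HIP, 1.03 in Ins) and 1.68 within bands, and it was above 0 in 3 of the 5 blocks.

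Bcl6 (chromosome 16, 23965052 to 23988852) was found in 26 of 45 Cxcr5-detected HIP cells (57.8%, 42.2% to 72.3%) and in 27 of 66 other HIP cells (40.9%, 29.0% to 53.7%). In the Ins sort the shares were 46.4% (27.5% to 66.1%) in Cxcr5-detected and 33.3% (18.0% to 51.8%) in other cells. Its mean was 200.4 ± 280.5 TPM in Cxcr5-detected and 193.9 ± 435.6 TPM in other HIP cells, so the level itself was close. The Ins means were 174.7 ± 350.2 TPM in Cxcr5-detected and 116.8 ± 380.1 TPM in other cells. The averaged difference was 1.10 (0.95 in HIP, 1.26 in Ins) and 1.02 within bands, and it was above 0 in all 5 blocks.

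Slamf6, a SLAM receptor that T and B cells use to adhere to each other, was found in 60.0% of Cxcr5-detected and 47.0% of other HIP cells, and in 67.9% and 57.6% of the same Ins groups. Sh2d1a encodes SAP, the adaptor through which SLAM receptors signal. It was found in 71.1% of Cxcr5-detected and 62.1% of other HIP cells, and in 60.7% and 42.4% of the same Ins groups. Within bands the differences were 0.95 for Slamf6 and 0.70 for Sh2d1a, under the threshold of 1. Tox2, a transcription factor that acts with Bcl6, was found in 64.4% of Cxcr5-detected HIP cells (48.8% to 78.1%) and 39.4% of other HIP cells (27.6% to 52.2%), but in 35.7% and 30.3% of the same Ins groups. Its difference was 2.18 in HIP and 0.06 in Ins. Of the 7 list genes counted as higher, all had a higher share of cells in both sorts, and 2 (Bcl6 and Slamf6) also had a higher mean TPM in both. Folr4 and Cd200 were named after their values were seen. Cd200, a membrane glycoprotein common on follicular helper cells, differed by -1.08 on average (-0.60 in HIP, -1.57 in Ins) and by -1.49 within bands.

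Il21, Icos, Cd40lg and Maf were not counted in either direction. Il21, the cytokine of B cell help, was found in 22.2% of Cxcr5-detected and 24.2% of other HIP cells, and in 25.0% and 30.3% of the same Ins groups. Its averaged difference was -0.33. Icos, the costimulatory receptor that sustains these cells, differed by 0.18 on average, with shares of 53.3% in Cxcr5-detected and 42.4% in other HIP cells and of 53.6% and 54.5% in the same Ins groups. Cd40lg, which encodes CD40 ligand, went opposite ways. Cd40lg was found in 51.1% of Cxcr5-detected HIP cells (35.8% to 66.3%) and 25.8% of other HIP cells (15.8% to 38.0%), but in 21.4% of Cxcr5-detected Ins cells (8.30% to 41.0%) and 33.3% of other Ins cells (18.0% to 51.8%). Maf, a factor that drives Il21, likewise differed by 0.77 in HIP and -1.12 in Ins. Whether the sorts differ in these genes was not tested.

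**Figure D3:**
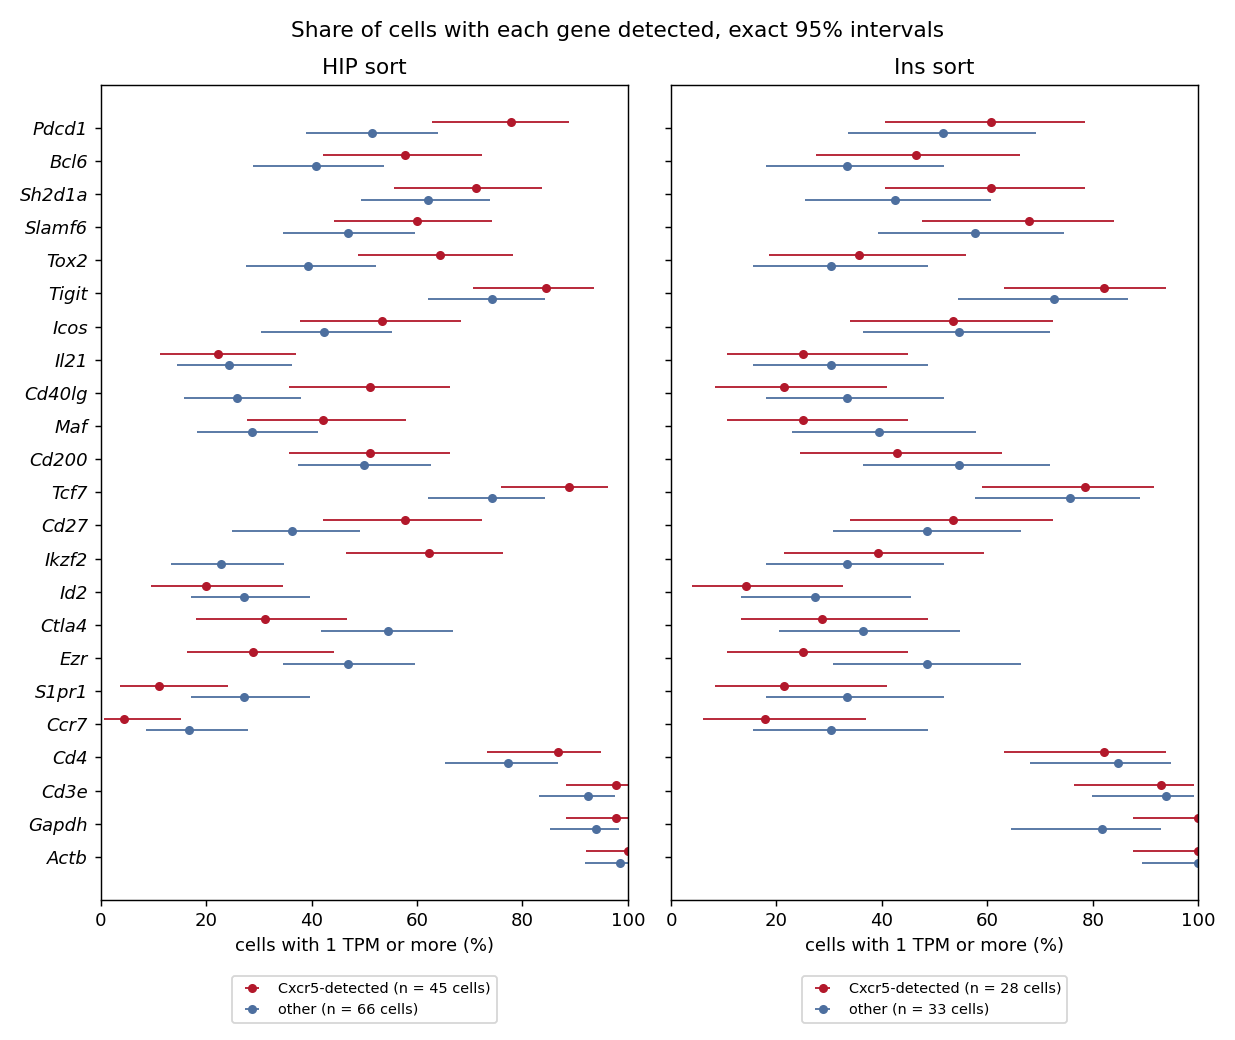
Percent of cells with 1 TPM or more (horizontal axis) for 23 genes, in the HIP sort (left) and the Ins sort (right), with Cxcr5-detected cells in red above other cells in blue and exact 95% intervals as bars. Ikzf2 in HIP, at 62.2% and 22.7%, has intervals that do not meet, while Pdcd1, Bcl6 and most other genes overlap. The intervals cover counting error only, and the HIP sides drew unequally on its blocks.

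Taken cell by cell, the other cells mostly carried follicular helper genes as well. At least 1 of Pdcd1, Bcl6, Icos, Il21 and Sh2d1a was found in 70 of 73 Cxcr5-detected cells (95.9%, 88.5% to 99.1%) and in 84 of 99 other cells (84.8%, 76.2% to 91.3%). Pdcd1 and Bcl6 were found together in 45.2% of Cxcr5-detected cells (33.5% to 57.3%) and in 26.3% of other cells (17.9% to 36.1%). By sort these shares were 51.1% in Cxcr5-detected and 27.3% in other HIP cells, and 35.7% and 24.2% in the same Ins groups. Pdcd1 with Il21 was found in 16.4% of Cxcr5-detected and 14.1% of other cells. Of the 23 list genes, a Cxcr5-detected HIP cell showed 10.0 ± 3.09 and another HIP cell 8.03 ± 3.59 (SD over cells). The Ins values were 8.89 ± 2.78 in Cxcr5-detected and 8.48 ± 3.78 in other cells. Cells annotated as activated CD4 T cells showed 7.93 ± 2.97 of these genes in HIP and 7.44 ± 2.81 in Ins. On this count, over the whole sort, the other HIP cells lay nearer to the activated HIP cells. The other Ins cells lay nearer to the Cxcr5-detected Ins cells. The HIP blocks differed, with 7.39 in block 1 and 9.32 in block 2 for other cells. Cxcr5-detected cells showed 9.6 and 10.3 in the same blocks. In block 2 the other cells thus lay nearer to the Cxcr5-detected cells than to all activated HIP cells. Activated HIP cells had a median of 2075 genes detected, and activated Ins cells 1862. The part of that number in these counts was not tested.

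Of the transcription factors that precede or oppose the programme, Tcf7 and Stat3 were higher and Id2 was lower. Tcf7 encodes TCF-1, which acts early to raise Bcl6, and it was found in 88.9% of Cxcr5-detected HIP cells (75.9% to 96.3%) and 74.2% of other HIP cells (62.0% to 84.2%). Its mean was 1436 ± 1365 TPM in Cxcr5-detected and 761.2 ± 888.1 TPM in other HIP cells. In the Ins sort the means were 1047 ± 897.2 TPM in Cxcr5-detected and 750.6 ± 852.8 TPM in other cells. Tcf7 differed by 1.45 on average and lay above 0 in all 5 blocks, with 0.71 left within bands. Stat3, which relays interleukin 6 and interleukin 21 signals, differed by 1.22 (0.78 within bands).

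Id2, whose product restrains E proteins that support Cxcr5 expression, was found in 20.0% of Cxcr5-detected and 27.3% of other HIP cells, and in 14.3% and 27.3% of the same Ins groups. Its mean was 78.9 ± 236 TPM in Cxcr5-detected and 308.2 ± 737.1 TPM in other HIP cells, and its averaged difference was -1.13 (-1.21 within bands). Prdm1, which encodes Blimp-1, the repressor of Bcl6, was found in 0 of 73 Cxcr5-detected cells (exact upper limit 4.93%, or 4.11% by the limit of 3 cells) and in 3.03% of other cells. Of the 15 listed factors 8 were compared, 2 were counted as higher and 1 as lower, against 10.9% and 1.56% of all genes. Within bands the counts were 0 higher and 1 lower, against 5.46% and 4.35%.

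Cd27 and Ikzf2 lay above 0 in all 5 blocks. Cd27, a costimulatory receptor of the TNF receptor family, was found in 57.8% of Cxcr5-detected and 36.4% of other HIP cells, and in 53.6% and 48.5% of the same Ins groups. It differed by 1.32, with 1.08 within bands. Ikzf2 encodes Helios, a factor known from regulatory T cells and also present in follicular helper cells. It was found in 28 of 45 Cxcr5-detected HIP cells (62.2%, 46.5% to 76.2%) and in 15 of 66 other HIP cells (22.7%, 13.3% to 34.7%). These intervals lie apart, but they cover counting error only, and the HIP sides drew unequally on its blocks. The gene was also named for its difference in these same cells, so the gap is no test. Ins cells showed Ikzf2 in 39.3% of Cxcr5-detected (21.5% to 59.4%) and 33.3% of other cells (18.0% to 51.8%). Its level was low, at means of 37.9 ± 55.2 and 22.8 ± 68.5 TPM in the HIP groups and 29.0 ± 46.5 and 10.3 ± 21.3 TPM in the Ins groups. Ikzf2 differed by 1.40 on average and by 1.20 within bands.

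Ctla4, the inhibitory receptor that competes with CD28 and is abundant in regulatory T cells, ran the other way. It was found in 14 of 45 Cxcr5-detected HIP cells (31.1%, 18.2% to 46.6%) and in 36 of 66 other HIP cells (54.5%, 41.8% to 66.9%). The Ins shares were 28.6% (13.2% to 48.7%) in Cxcr5-detected and 36.4% (20.4% to 54.9%) in other cells. Its mean was 147.9 ± 395.7 TPM in Cxcr5-detected and 291.6 ± 480.9 TPM in other HIP cells. Ctla4 differed by -1.47 on average and -1.54 within bands, and lay below 0 in 4 of 5 blocks. Foxp3, which defines regulatory T cells, was found in 2.22% of Cxcr5-detected and 1.52% of other HIP cells and in 14.3% and 12.1% of the same Ins groups. Cells with Foxp3 were thus about as frequent on both sides. Of 15 listed regulatory genes 7 were compared, with 1 counted as higher (Ikzf2) and 1 as lower (Ctla4), against 10.9% and 1.56% of all genes. Within bands 1 was higher (Ikzf2) and 2 were lower (Ctla4 and Tnfrsf4), against 5.46% and 4.35%.

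Ccr7 and S1pr1, which guide cells away from follicles or out of tissue, had lower shares in Cxcr5-detected cells of both sorts, with intervals that overlapped. Ccr7, the receptor that draws T cells to the T cell zone, was found in 2 of 45 Cxcr5-detected HIP cells (4.44%, 0.543% to 15.1%) and in 11 of 66 other HIP cells (16.7%, 8.62% to 27.9%). Among Ins cells it was found in 17.9% of Cxcr5-detected (6.06% to 36.9%) and 30.3% of other cells (15.6% to 48.7%). It differed by -1.31, lay below 0 in all 5 blocks and reached -1.81 within bands, but it was under the 25% filter and so stands outside the 38. S1pr1, the receptor for the lipid that draws cells out of tissue, was found in 11.1% of Cxcr5-detected and 27.3% of other HIP cells, and in 21.4% and 33.3% of the same Ins groups. Its averaged difference was -1.12 (-1.30 within bands). Either gene was found in 23.3% of Cxcr5-detected cells (14.2% to 34.6%) and in 37.4% of other cells (27.9% to 47.7%).

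Among the other homing receptors, Gpr132, a G protein-coupled receptor, was found in 9.59% of Cxcr5-detected and 19.2% of other cells of both sorts, and differed by -0.62. Ccr8, a chemokine receptor, was found in 5.48% of Cxcr5-detected and 13.1% of other cells, but differed by -1.36 in HIP and 0.51 in Ins. Gpr132 and Ccr8 were named after their values were seen. Cxcr4, which guides cells to CXCL12, was found in 72.6% of Cxcr5-detected and 69.7% of other cells, and Cxcr3, the receptor of type 1 effector cells, in 31.5% and 28.3%. Of 19 listed homing receptors 4 were compared, 0 were counted as higher and 1 (S1pr1) as lower, against 10.9% and 1.56% of all genes, and the bands gave the same counts. Of the 10 members found in 10% of cells 3 lay above 0 in both sorts, 3 below 0 in both and 4 had opposite signs. Their median was -0.25, against 0.14 over all genes at that filter. Ifng, the type 1 cytokine, was found in 4.44% of Cxcr5-detected and 13.6% of other HIP cells, and in 0 of 28 and 0 of 33 cells of the same Ins groups, with exact upper limits of 12.3% and 10.6% (10.7% and 9.09% by the limit of 3 cells).

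Ezr had the lowest averaged difference of the 2437 genes. It encodes ezrin, which ties membrane proteins to the actin cortex. Ezr (chromosome 17, 6738041 to 6782784) was found in 13 of 45 Cxcr5-detected HIP cells (28.9%, 16.4% to 44.3%) and in 31 of 66 other HIP cells (47.0%, 34.6% to 59.7%). Among Ins cells it was found in 7 of 28 Cxcr5-detected (25.0%, 10.7% to 44.9%) and in 16 of 33 other cells (48.5%, 30.8% to 66.5%). Its mean was 120.8 ± 234.5 TPM in Cxcr5-detected and 246.6 ± 350.6 TPM in other HIP cells, and 79.4 ± 179.6 and 218 ± 406.6 TPM in the same Ins groups. Ezr differed by -1.86 (-1.59 in HIP, -2.12 in Ins), lay below 0 in all 5 blocks and reached -2.11 within bands.

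Next in that direction came Tgtp2 (-1.65), an interferon-induced GTPase whose reads may be shared with the near-identical Tgtp1, and then Ctla4. Tapbp (-1.46), a chaperone that loads MHC class I, Cdk4 (-1.46), a kinase that drives entry into the cell cycle, and Rbmx (-1.43), an RNA-binding protein, rested mainly on the Ins sort, with -0.12, -0.33 and -0.37 in HIP. Rasa3 (-1.41) switches off Ras and Rap GTPases. Rasa3 was found in 4 of 45 Cxcr5-detected and 17 of 66 other HIP cells, and in 2 of 28 and 11 of 33 cells of the same Ins groups. Tgtp2 and Rasa3 lay below 0 in all 5 blocks. The interferon-induced GTPase Ifi47 differed by -1.41. Of 13 listed interferon genes, which do not include Tgtp2 or Ifi47, 4 were compared. None was counted in either direction, against 10.9% and 1.56% of all genes, and 4 genes are too few for that count to tell. Adrbk1, a kinase that desensitises G protein-coupled receptors, differed by -1.35, from -0.24 in HIP and -2.45 in Ins. The early-response genes Ier2 (-1.32) and Junb (-1.12) were lower on average, each in 3 of 5 blocks.

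At the other end stood Cdc42 (2.27), which organises actin and cell polarity. Cdc42 was found in 77.8% of Cxcr5-detected and 68.2% of other HIP cells, and in 25 of 28 Cxcr5-detected (89.3%, 71.8% to 97.7%) and 18 of 33 other Ins cells (54.5%, 36.4% to 71.9%). Its mean was 724.4 ± 612.9 and 597.3 ± 722.8 TPM in the HIP groups and 719.4 ± 652.7 and 418.5 ± 713.7 TPM in the Ins groups. Within bands 1.51 was left. Tmed2 (2.23), a carrier of cargo between endoplasmic reticulum and Golgi, rested on the Ins sort, with 0.57 in HIP and 3.88 in Ins. Bcl2a1b (2.13) belongs to a family of near-identical survival genes whose reads may be split or shared, so its value is uncertain.

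Gnai3 (2.13) encodes an alpha subunit of the inhibitory G proteins through which chemokine receptors signal. It was found in 19 of 45 Cxcr5-detected HIP cells (42.2%, 27.7% to 57.8%) and in 16 of 66 other HIP cells (24.2%, 14.5% to 36.4%). Ins cells showed it in 14 of 28 Cxcr5-detected (50.0%, 30.6% to 69.4%) and in 6 of 33 other cells (18.2%, 6.98% to 35.5%). Its mean was 196.7 ± 333.3 TPM in Cxcr5-detected and 149.1 ± 362.9 TPM in other HIP cells, and 291.8 ± 425.7 and 88.9 ± 245.7 TPM in the same Ins groups. Gnai3 lay above 0 in all 5 blocks and kept 2.07 within bands. Fermt3 (2.06) encodes kindlin-3, which activates integrins of blood cells, and it kept 1.92 within bands, with 2.02 in HIP and 2.09 in Ins.

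**Figure D4:**
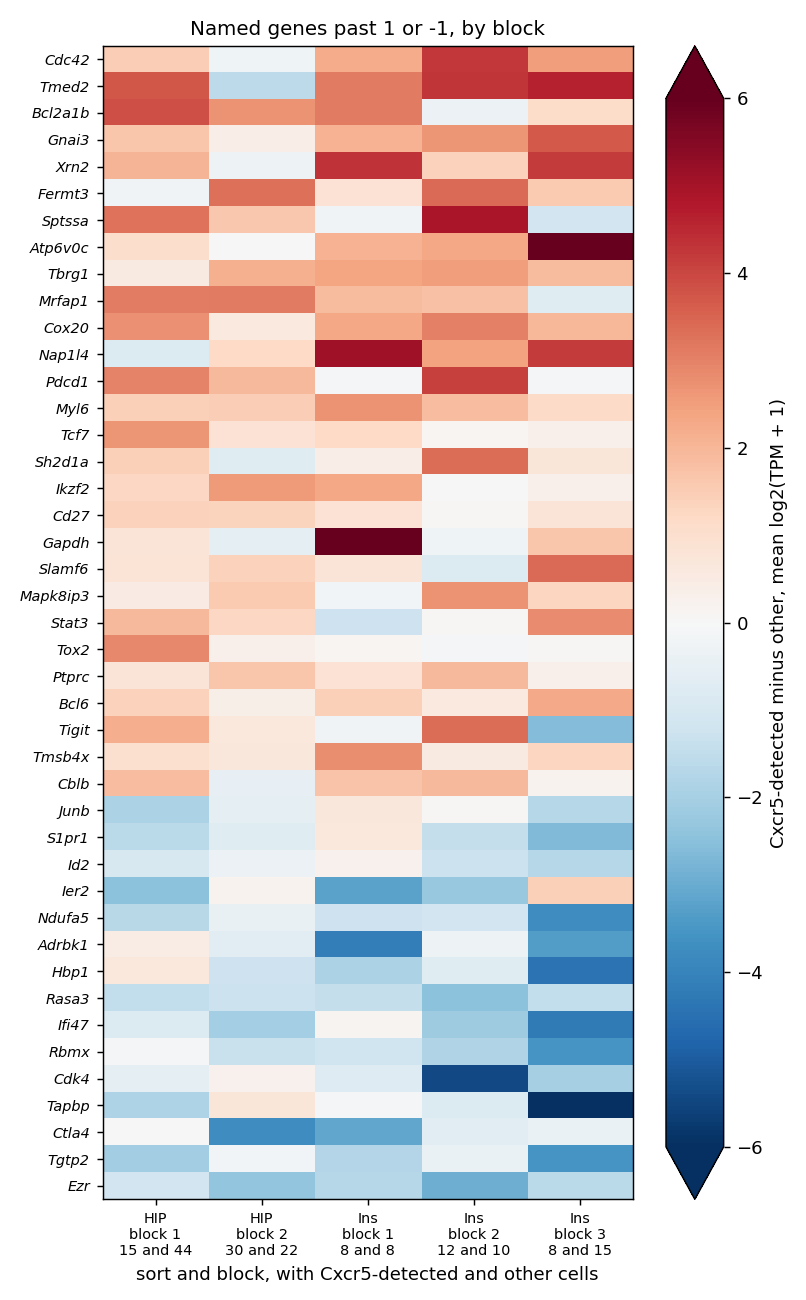
Difference of mean log2(TPM + 1), Cxcr5-detected minus other (colour, red higher and blue lower), for the named genes past 1 or -1 (vertical axis) in each of the 5 blocks of cell names (horizontal axis, with the number of Cxcr5-detected and then other cells). Gnai3, Bcl6, Tcf7, Cd27 and Ikzf2 are above 0 and Ezr, Rasa3 and Tgtp2 are below 0 in every block, while Pdcd1 is above 0 in 3.

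Over all genes compared, agreement between the blocks was limited. Of the 265 higher genes 90 lay above 0 in all 5 blocks, and of the 38 lower genes 11 lay below 0 in all 5. Among all 2437 genes, 146 lay above and 59 below 0 in every block. Blocks held between 8 and 44 cells on a side. With equal weight per block, 248 genes were higher and 54 lower, among them 215 of the 265 and 32 of the 38. The genes whose pattern of detection was most like that of Cxcr5, by the phi coefficient within each sort (111 and 61 cells), were Cox20 (0.28), Hnrnpab (0.28), Mapk8ip3 (0.27), Myl6 (0.27) and Gnai3 (0.26). These are weak likenesses. All patterns were taken over the same cells, which differ in the number of genes detected, and the part of that number was not tested. Hnrnpab lay near the cut of 1 TPM, at a median where found of 2.57 TPM in Cxcr5-detected and 3.19 TPM in other cells. Myl6, a light chain of non-muscle myosin, was found in 45 of 45 Cxcr5-detected and 56 of 66 other HIP cells, and in 28 of 28 and 28 of 33 cells of the same Ins groups.

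Genes that every T cell is thought to carry also leaned towards the Cxcr5-detected cells. Gapdh, a glycolytic enzyme, was found in 97.8% of Cxcr5-detected and 93.9% of other HIP cells, and in 28 of 28 and 27 of 33 cells of the same Ins groups, with a difference of 1.30 that came to 0.66 within bands. Actb, cytoskeletal actin, averaged 10968 ± 4097 TPM in Cxcr5-detected and 8264 ± 4296 TPM in other HIP cells, and 11834 ± 4719 and 8393 ± 3748 TPM in the same Ins groups. The median of 12 housekeeping genes was 0.52, and 0.12 within bands. That of 15 constitutive T cell genes was 0.26, and -0.08 within bands, with Cd3e at 0.23 and Cd4 at 0.99. These medians stand beside 0.38 and 0.22 for the follicular helper list, so the list's raw median was no higher than that of housekeeping genes. The part of the number of genes detected in the named differences was not tested beyond the comparison within bands.

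The remaining lists are read against 10.9% higher and 1.56% lower over all genes, and against 5.46% and 4.35% within bands. Of 12 inhibitory and anergy genes compared, 4 were higher (Pdcd1, Tigit, Folr4 and Cblb) and 1 was lower (Ctla4), while within bands 1 was higher and 2 were lower. Cblb encodes a ubiquitin ligase that dampens receptor signalling, and it differed by 1.05, with 0.77 within bands. Sh2d1a and Slamf6 were the 2 higher genes among 5 of the SLAM family and its adaptors, with 0 lower, and within bands 0 were called. Cd27 was the 1 higher gene among 8 costimulatory receptors, with 0 lower, against 0 higher and 1 lower (Tnfrsf4, -1.02) within bands. Junb and Ier2 were the 2 lower genes among 7 immediate-early and stress genes, with 0 higher, and the bands gave the same counts. Naive and central memory genes gave Tcf7 higher and S1pr1 lower of 3 compared, and within bands 0 higher and 1 lower. Housekeeping genes gave Gapdh and Tmsb4x higher of 11, and constitutive T cell genes Ptprc higher of 15, with 0 called in either list within bands. With or without bands, 0 genes were called among 4 antigen receptor response genes, 2 cytokines, 5 cell division genes, 1 antibody-secreting gene and 1 CD8 or NK gene. Of 3 Th1 effector genes 0 were called, and 1 was lower within bands (Bhlhe40, -1.31). The 1 myeloid gene compared was called within bands, as higher (Cst3, 1.30). No B cell, islet or endothelial gene passed the 25% filter.

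**Figure D5:**
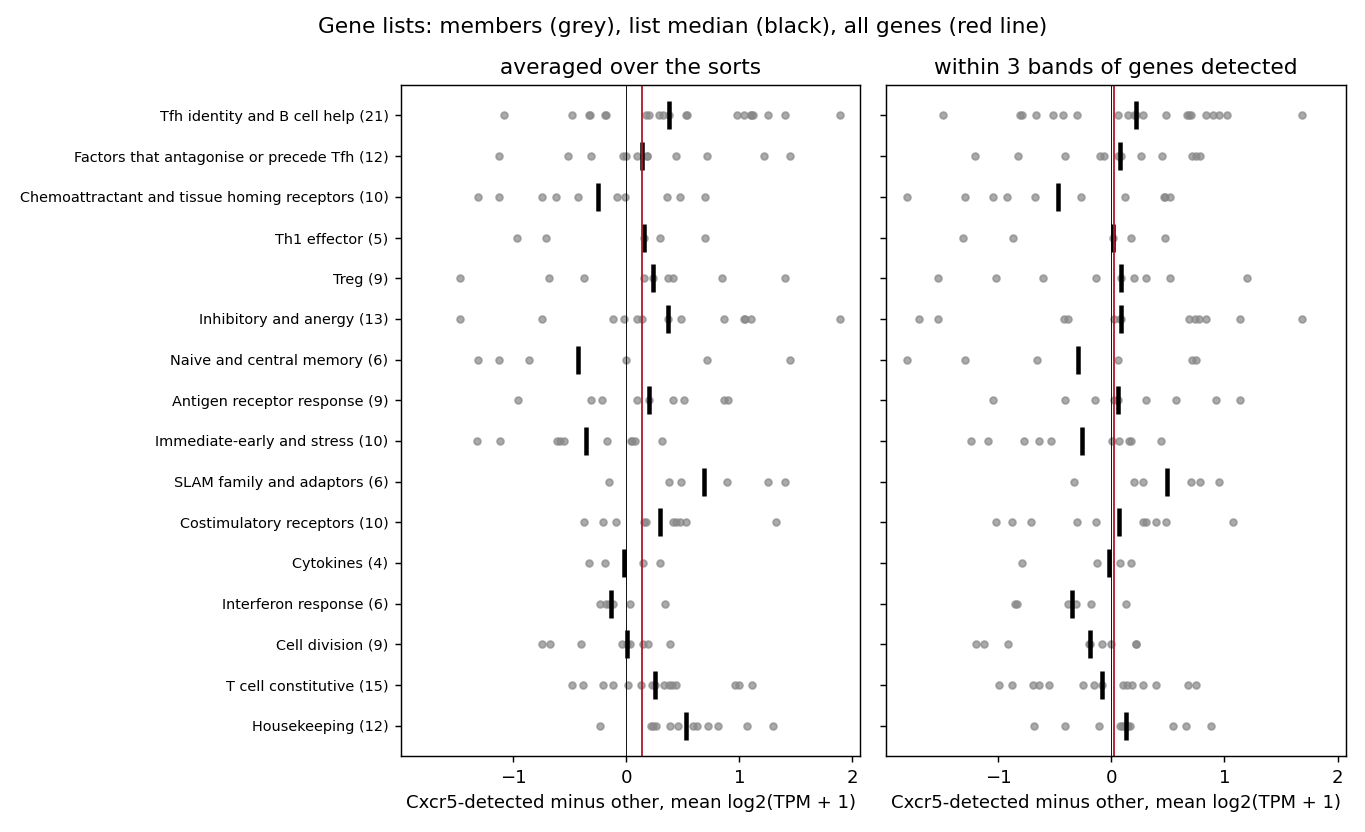
Difference of mean log2(TPM + 1), Cxcr5-detected minus other (horizontal axis), for the members of 16 gene lists found in 10% of the cells of either side (grey points, number in brackets), averaged over the sorts (left) and within bands of genes detected (right). Black bars are list medians and the red line is the median of all genes, 0.14 on the left and 0.02 on the right; the follicular helper list lies at 0.38 and 0.22, housekeeping genes at 0.52 and 0.12.

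Most listed genes of other cell types were found in few cells of either side, but some were not. The myeloid gene Cst3 was found in 46.6% of Cxcr5-detected and 35.4% of other cells. In the same order, Xbp1 (antibody-secreting) was found in 30.1% and 22.2%, and Pecam1 (endothelial) in 24.7% and 20.2%. Cd8b1 was found in 24.7% and 29.3%, and the B cell gene Cd22 in 19.2% and 15.2%. Where found, the medians of Cd8b1 and Cd22 were low, at 4.08 and 3.32 TPM for Cd8b1 and 1.79 and 2.92 TPM for Cd22. Those of the others were far higher, at 1002.5 and 1401 TPM for Cst3, 578.8 and 532.7 TPM for Xbp1, and 211.1 and 517.5 TPM for Pecam1. Of 13 listed B cell genes 12 were in the table. The summed level of the list ran from 0 to 659.3 TPM in Cxcr5-detected and from 0 to 113667 TPM in other HIP cells, and from 0 to 97363 and 0 to 2715 TPM in the same Ins groups. Cd79a or Cd79b, chains of the B cell receptor complex, were found in 0 of 45 Cxcr5-detected and 2 of 66 other HIP cells, and in 3 of 28 and 0 of 33 Ins cells. In 1 Cxcr5-detected Ins cell, with Cxcr5 at 2572 TPM, B cell genes took 9.74% of TPM. Without the 5 cells with Cd79a or Cd79b the counts were 285 higher and 36 lower genes. Ins2, the insulin gene of the surrounding islet, was found in 8.89% of Cxcr5-detected and 12.1% of other HIP cells, and in 7.14% and 3.03% of the same Ins groups. The summed level of the 6 myeloid genes in the table ran from 0 to 3060 and 0 to 4500 TPM in the HIP groups and from 0 to 2407 and 0 to 3018 TPM in the Ins groups. Cst3, the 1 myeloid gene among those compared, differed by -0.00225 in HIP and 2.84 in Ins, while Itgax and C1qb were at 0 in every cell. Rn45s, a ribosomal RNA precursor, took 2.17% of TPM at the median in Cxcr5-detected and 1.81% in other HIP cells, and 2.43% in both Ins groups. Its highest share was 17.1% in a Cxcr5-detected and 44.4% in another HIP cell, and 4.11% and 21.8% in the Ins groups. Without cells at 10% or more of Rn45s the counts were 209 higher and 60 lower genes. The part of these transcripts in the differences was not tested.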

How the data were processed

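Single cells sorted as CD4 T cells were profiled with SMART-Seq2, a full-length transcript protocol, per the labels' protocols. The submitters' processing notes name RSEM 1.2.8, Bowtie, TopHat and build mm10, with no roles. Filters and clustering are not stated in those notes or in the labels. The authors' deposited table held natural log values of 13561 genes, read as ln(TPM/10 + 1) because exp(value) - 1 added up to 100000 over the genes of a cell. They were converted to TPM, with a total of 1000000. The authors' deposited annotation, a table of other columns, gave each cell's sort, class and number of genes. Positions are from GENCODE M21. Differences of mean log2(TPM + 1), Cxcr5-detected minus other, were taken within each sort and averaged, on a scale that understates changes of low genes. A gene was detected at 1 TPM; genes in 25% of the cells of either side were compared, and members of lists at 10%.

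No label names an animal, so no test was made and no doublet caller was run. The members and lists were chosen with earlier results of these data known. Named genes were the 12 largest averaged differences in each direction with the same sign in both sorts (without receptor segments, unnamed models, ribosomal protein and mitochondrial genes), the 4 largest of each of 22 lists, 22 genes always named, and the 5 most like Cxcr5 in detection. Folr4, Cd200, Gpr132, Ccr8 and Tnfrsf4 were added after their values were seen. Of 264 list genes 246 were in the table, 2 under older symbols. Blocks came from the numbers in cell names. Alternatives covered the pseudocount, the filter, the Cxcr5 cut, weighting, matching on genes detected, and leaving out cells or blocks. Analyses used Python 3.11.15, numpy 2.4.6, pandas 2.3.3, scipy 1.17.1 and matplotlib 3.10.9, with code tested on simulated data.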

Additional observations from a re-analysis of the deposited data

How the results depend on the processing

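Results were recomputed under 20 alternatives where the setting applied (the number of genes per cell has no pseudocount, filter, band, Rn45s rescaling or subtraction, and the median of all genes no subtraction), 17 planned and 3 chosen after seeing the data (the median of all genes subtracted, and leaving out cells with Cd79a or Cd79b or with 10% or more of TPM in Rn45s). None reversed, and of the 43 named genes past 1 or -1 none changed sign. These genes were picked for large differences in the same cells, so a kept sign is no support for them. The values nearest 0 over the settings were 0.16 for Tigit and 0.18 for Tox2, and -0.32 for Tapbp among the lower genes. The higher count of 265 became 52 with a pseudocount of 10 TPM, 133 within 3 bands of genes detected, 154 with the median subtracted, and 246 to 398 when each block was left out, highest without Ins block 3. The lower count of 38 became 3 with that pseudocount, 106 within bands, 117 without cells under 1500 genes, 75 with the median subtracted, 60 without cells rich in Rn45s, and 57 to 105 with a block left out, highest without HIP block 1. The median of all genes, 0.23, became 0.11 with the pseudocount, 0.14 at the 10% filter, 0.0111 with no filter, 0.14 by block, 0.0503 within bands, 0.12 without cells under 1500 genes, 0.18 without cells rich in Rn45s, and 0.16 to 0.24 with a block left out. The cause was not tested. A higher pseudocount gives less weight to detection by construction. The median of the follicular helper list stayed above 0 throughout, between 0.16 with the median subtracted and 0.53 without cells with Foxp3. Genes per cell were higher by 206.5 on average, by 82.7 within blocks, and by 83.2 without HIP block 1. No paired analysis was possible because no label names an animal, and no test was made. With 1 sample a sort, the spread between animals is unknown, and detection limits every gene found in a minority of cells.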
